A study of Homo sapiens with 3 samples.

Results

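The genes described here encode 29 proteins of cholesterol and fatty acid synthesis, all of them chosen by symbol and all found among the 57773 rows of the deposited expression table. Of these, 18 encode enzymes of the cholesterol branch (7 of the mevalonate steps and 11 of the squalene and sterol steps), 7 encode enzymes of the fatty acid branch, and 4 (SREBF1, SREBF2, INSIG1 and STARD4) encode regulators or a sterol carrier and were counted in neither branch. Their transcripts were quantified by RNA-seq in 3 derivatives of HaCaT, a human keratinocyte line that became immortal in culture. All 3 lines carry the oncogenic HRasG12V mutant, including the control. The control line received an empty vector, the second line wild-type THG-1 (the TSC22 family protein encoded by TSC22D4) and the third THG-1 S264A, in which a serine is replaced by alanine. All lines were grown in DMEM with fetal bovine serum. Each line was represented by 1 library, and the sources used here do not say whether a line is a clone or a pool of cells.

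Cholesterol is built from acetyl-CoA through mevalonate, isoprenoid diphosphates, squalene and lanosterol, and fatty acids are built from the same acetyl-CoA through malonyl-CoA. Both branches are transcribed under sterol regulatory element-binding proteins (SREBPs), of which SREBP2 is best known for the cholesterol genes and SREBP1 for the fatty acid genes. SREBPs are held in the endoplasmic reticulum by INSIG proteins when sterols are plentiful and are cut and sent to the nucleus when sterols are scarce. In epidermis, keratinocytes use both branches to make the cholesterol, fatty acids and ceramides of the permeability barrier.

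SREBPs act at promoters together with nuclear factor Y (NF-Y), which binds the CCAAT box, so the start-site windows of the members were read for these motifs. RefSeq windows (build GRCh38.p14, 250 bases before to 50 bases after the annotated start) were matched by symbol for 25 of the 29 members. ACAT2, FDFT1, SQLE and FASN were not matched. The motifs searched on both strands were CCAAT (reverse complement ATTGG), the SREBP consensus TCACNCCAC (reverse complement GTGGNGTGA) and the E-box CACGTG, which is its own reverse complement, and no motif contains another. A CCAAT match was found in 17 of 25 member windows (68.0%), against 34.6% of all 35116 windows of the same length. The share was 12 of 15 windows (80.0%) in the cholesterol branch and 2 of 6 (33.3%) in the fatty acid branch, where SCD and ACLY held it. The SREBP consensus was found in the SREBF2 window alone among the 25 (4% of windows, against 1.13% of all windows), and the E-box in those of INSIG1, SC5D and LSS (12% of windows, against 7.26%).

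The windows of the 4 members with the largest differences between lines, MVD, HMGCS1, ACLY and ELOVL6, are shown with that of SREBF2, which holds the SREBP consensus. They are given 5′ to 3′ on the strand of the gene, with matched motifs in capitals: CCAAT or ATTGG in the MVD, HMGCS1, ACLY and SREBF2 windows, TCACCCCAC as the SREBP consensus in SREBF2, and no match in ELOVL6. Their positions in GRCh38.p14 are chr16:88663042-88663341, minus strand for MVD, chr5:43313363-43313662, minus strand for HMGCS1, chr17:41918973-41919272, minus strand for ACLY, chr4:110198566-110198865, minus strand for ELOVL6 and chr22:41832855-41833154, plus strand for SREBF2.
MVD: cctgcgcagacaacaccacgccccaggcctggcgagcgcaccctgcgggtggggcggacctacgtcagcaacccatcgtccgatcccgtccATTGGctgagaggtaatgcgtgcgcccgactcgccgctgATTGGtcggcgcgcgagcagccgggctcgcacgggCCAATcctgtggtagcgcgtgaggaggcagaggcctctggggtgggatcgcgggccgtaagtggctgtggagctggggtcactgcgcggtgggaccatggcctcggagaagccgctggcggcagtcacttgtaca
HMGCS1: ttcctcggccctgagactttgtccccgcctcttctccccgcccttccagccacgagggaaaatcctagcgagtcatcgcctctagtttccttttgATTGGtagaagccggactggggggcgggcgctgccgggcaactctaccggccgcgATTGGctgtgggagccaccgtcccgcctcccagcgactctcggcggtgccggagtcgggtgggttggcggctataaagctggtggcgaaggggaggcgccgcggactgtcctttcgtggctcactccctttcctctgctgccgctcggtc
ACLY: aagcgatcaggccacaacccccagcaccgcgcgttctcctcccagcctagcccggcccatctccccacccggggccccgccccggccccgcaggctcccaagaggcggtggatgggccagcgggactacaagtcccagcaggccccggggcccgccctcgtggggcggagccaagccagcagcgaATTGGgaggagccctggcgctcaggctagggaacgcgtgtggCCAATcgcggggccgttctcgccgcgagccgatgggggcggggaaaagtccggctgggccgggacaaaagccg
ELOVL6: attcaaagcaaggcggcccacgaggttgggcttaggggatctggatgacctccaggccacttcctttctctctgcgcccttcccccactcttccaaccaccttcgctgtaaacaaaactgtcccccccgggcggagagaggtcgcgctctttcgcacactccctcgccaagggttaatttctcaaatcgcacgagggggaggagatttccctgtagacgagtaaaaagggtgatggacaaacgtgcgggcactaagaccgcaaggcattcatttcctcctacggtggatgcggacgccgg
SREBF2: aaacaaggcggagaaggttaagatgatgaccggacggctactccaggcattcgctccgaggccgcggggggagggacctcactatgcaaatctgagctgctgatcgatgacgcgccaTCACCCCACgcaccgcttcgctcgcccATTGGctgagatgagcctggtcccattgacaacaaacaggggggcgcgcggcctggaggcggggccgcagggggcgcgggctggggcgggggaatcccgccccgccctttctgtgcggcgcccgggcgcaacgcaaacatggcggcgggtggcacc

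**Figure D1:**
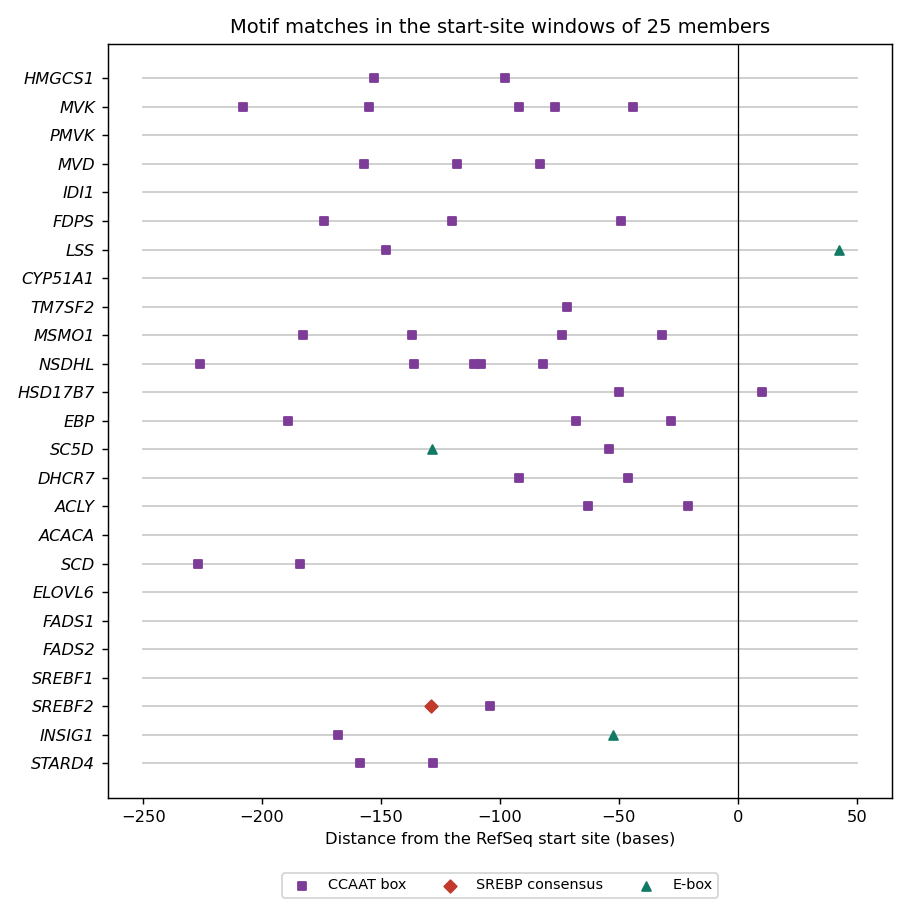
Motif matches in the start-site windows of the 25 matched members. The horizontal axis is the distance in bases from the RefSeq start site, each grey line is the window of a gene, and symbols mark CCAAT boxes (squares), the SREBP consensus (diamond) and E-boxes (triangles) on either strand. CCAAT boxes lie in 12 of the 15 cholesterol branch windows and in 2 of the 6 fatty acid branch windows.

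MVD held 3 CCAAT matches, with first bases at -159, -120 and -85 from the start. MVK and NSDHL held 5 each and MSMO1 4. A match describes letters in these windows only. A window without a match is not shown to lack a site, since other letters and bases beyond the window were not searched. Binding of any factor was not measured, and the start sites used in these cells are not known from the table.

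The empty-vector library was the deepest, at 32055052 reads, followed by S264A at 14022885 and wild type at 12733479. Levels are RPKM, that is reads scaled by the length of the gene and the depth of the library, so that genes of different length can be compared. TSC22D4 stood at 7.98, 64.9 and 51.1 RPKM in the empty-vector, wild-type and S264A lines, so that it was high in both lines that received it. The keratinocyte markers KRT5 (367, 240.5 and 329 RPKM) and TP63 (17.9, 20.1 and 17.4 RPKM) were present in every library. KRT14 differed more, at 119, 287 and 382 RPKM. Of 7 sebocyte or adipocyte markers 5 were at 0 in every library, and their summed level was at most 0.123 RPKM. The 3 hepatocyte markers were at 0, and of the immune, fibroblast, melanocyte and endothelial markers only VWF, with 1.51 RPKM in the S264A library, reached 1 RPKM.

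The members covered a wide range of levels. SCD, the stearoyl-CoA desaturase that makes monounsaturated fatty acids, was the most abundant member in every library, with 381 RPKM in the empty-vector line, 286 in the wild-type line and 360.1 in the S264A line. FASN, the fatty acid synthase, followed with 157 RPKM in the empty-vector line, 178 in the wild-type line and 163 in the S264A line. SCD ranked 44th, 71st and 47th among all genes of the 3 libraries and FASN 146th, 142nd and 141st. Together they made up 55.7%, 48.8% and 55.2% of the summed RPKM of all 29 members. In the cholesterol branch the largest level was that of FDPS, the farnesyl diphosphate synthase, at 36.8, 40.9 and 33.8 RPKM across the lines as before. The lowest members were FADS2, TM7SF2, HSD17B7, STARD4 and SC5D, between 1.54 and 3.23 RPKM.

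**Figure D2:**
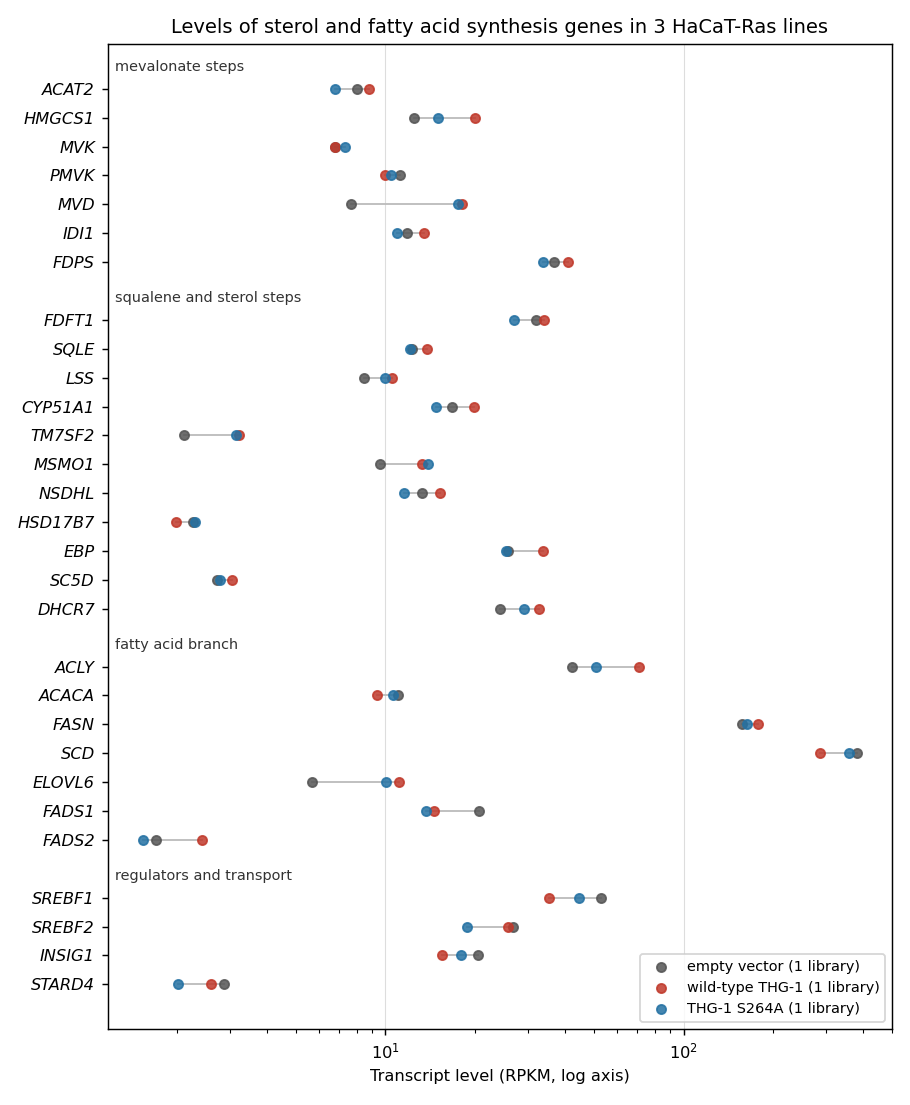
Levels of the 29 members in the 3 lines. The horizontal axis is RPKM on a log axis, each point is 1 library, and grey lines join the lowest and highest library of a gene. SCD (286 to 381 RPKM) and FASN (157 to 178 RPKM) stand above all other members, and MVD and ELOVL6 have the widest gap between the empty-vector line and the other lines.

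Differences between lines were expressed as log2((RPKM + 1)/(RPKM + 1)), which understates the change of low genes, and a gene entered a comparison if either library had 1 RPKM or more. All 29 members passed this filter in each of the 3 comparisons. With 1 library per line no test was possible, and variation between cultures cannot be told apart from the effect of the transgene. Ratios of single genes are plain ratios of RPKM with exact Clopper-Pearson 95% intervals from 104 to 65533 reads per value, which cover counting error only. In these bulk samples a smaller share of expressing cells and less RNA per cell cannot be told apart.

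The first comparison, wild-type THG-1 against empty vector, addresses what THG-1 changes in cells with oncogenic HRAS. MVD was at least 2-fold higher, which is 1 of 29 members (3.45%), against 4.53% of all 11993 genes compared (6.07% in either direction). No member was at least 2-fold lower, against 1.54% of all genes. At least 1.5-fold higher were MVD, HMGCS1, ELOVL6 and ACLY, or 13.8% of the members against 11.0% of all genes. No member was at least 1.5-fold lower, against 6.72% of all genes. The shares of higher members are near those of all genes. The median log2 difference was 0.15 over all members and -0.01 over all genes compared, and the middle 50% of all genes lay between -0.26 and 0.28.

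In the mevalonate steps MVD stood apart. MVD, the mevalonate diphosphate decarboxylase, which makes isopentenyl diphosphate, stood at 7.67 RPKM in the empty-vector line, 18.05 in the wild-type line and 17.5 in the S264A line. Its ratio was 2.35 (2.16 to 2.56) in the wild-type line and 2.29 (2.11 to 2.48) in the S264A line, both against the same empty-vector library. The S264A line was at 0.972 (0.894 to 1.06) times the wild-type line, so that both THG-1 lines were high and lay within counting error of each other. A log2 difference as high as that of MVD was found in 3.41% of all genes for wild type and in 2.31% for S264A.

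HMGCS1, the cytosolic synthase that makes HMG-CoA, was at 12.5 RPKM in the empty-vector line, 19.9 in the wild-type line and 15.04 in the S264A line. The wild-type line was the highest and the S264A line lay between the others. The ratio was 1.597 (1.48 to 1.72) in the wild-type line, 1.21 (1.12 to 1.303) in the S264A line, and 0.755 (0.693 to 0.822) for S264A against wild type. The 1.5-fold call for wild type was lost under 4 of 6 alternatives, with log2 differences down to 0.49. The kinases on either side of phosphomevalonate differed little. MVK, the mevalonate kinase, was at 6.76, 6.79 and 7.32 RPKM in the order empty vector, wild type and S264A, and PMVK, the phosphomevalonate kinase, at 11.2, 9.94 and 10.4 RPKM. The 95% intervals of both ratios to empty vector included 1 for both genes.

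The 3 other mevalonate step genes were within 1.19-fold of the empty-vector line. ACAT2, the cytosolic acetoacetyl-CoA thiolase, was at 8.02, 8.78 and 6.75 RPKM, again for empty vector, wild type and S264A. IDI1, the isomerase of isopentenyl diphosphate, was at 11.8, 13.5 and 10.9 RPKM. FDPS, at the levels given above, had ratios of 1.11 in the wild-type line and 0.919 in the S264A line. For each of these 3 genes the wild-type library was the highest and the S264A library the lowest. The intervals against empty vector included 1 for ACAT2 with wild type and for IDI1 with S264A. The ACAT2 and FDPS differences between wild type and empty vector changed sign with the scaling of the libraries. Exons of FDPS overlap those of RUSC1-AS1 on the opposite strand (18.6% of its length). Exons of ACAT2 overlap those of SOD2-OT1, SOD2 and TCP1 on the opposite strand in GENCODE release 29 (33.9%, 26.5% and 9.23% of its length), and the sources used here do not say whether counting used strand.

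None of the 11 genes of the squalene and sterol steps reached a 1.5-fold difference on the log2(RPKM + 1) scale in any comparison. TM7SF2, a sterol reductase, had the largest difference of this group for wild type, with 2.11 RPKM in the empty-vector line, 3.23 in the wild-type line and 3.16 in the S264A line from 231, 140 and 151 reads. Its ratios were 1.53 (1.23 to 1.89) in the wild-type line and 1.49 (1.21 to 1.84) in the S264A line. MSMO1, the methylsterol monooxygenase, had the largest difference of the group for S264A, with 9.601 RPKM in the empty-vector line, 13.3 in the wild-type line and 13.9 in the S264A line. Its ratios were 1.38 (1.23 to 1.54) in the wild-type line and 1.44 (1.296 to 1.61) in the S264A line. In both genes the empty-vector library was the lowest, and the THG-1 lines lay within counting error of each other, with ratios of 0.979 (0.773 to 1.24) and 1.05 (0.925 to 1.18).

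CYP51A1, the lanosterol demethylase, followed another order. It was at 16.8 RPKM in the empty-vector line, 19.8 in the wild-type line and 14.7 in the S264A line, with ratios of 1.18 (1.09 to 1.27) in the wild-type line, 0.878 (0.8104 to 0.952) in the S264A line, and 0.744 (0.679 to 0.816) for S264A against wild type. The wild-type library was the highest and the S264A library the lowest. FDFT1, the squalene synthase at the branch point to sterols, had the same order, at 32.1, 34.1 and 27.01 RPKM. So did SQLE, the squalene epoxidase and a rate-limiting enzyme of the sterol steps, at 12.3, 13.7 and 12.1 RPKM. NSDHL, a sterol dehydrogenase, and EBP, a sterol isomerase, also had it, at 13.3, 15.2 and 11.6 RPKM and 25.8, 33.7 and 25.4 RPKM. For SQLE and EBP the S264A and empty-vector libraries lay within counting error of each other, with ratios of 0.984 (0.901 to 1.07) and 0.985 (0.908 to 1.07). The FDFT1 difference between wild type and empty vector changed sign with the scaling of the libraries.

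In LSS and DHCR7 the S264A library lay between the others. LSS, the lanosterol synthase that closes the sterol rings, was at 8.49, 10.5 and 9.98 RPKM. DHCR7, the reductase whose substrate is also the precursor of vitamin D in skin, was at 24.3, 32.9 and 29.2 RPKM, with ratios of 1.35 for wild type and 1.204 for S264A. SC5D, a sterol desaturase, and HSD17B7, a sterol ketoreductase, were low, at 2.71, 3.06 and 2.79 RPKM and 2.25, 1.98 and 2.30 RPKM, and their intervals against empty vector included 1. HSD17B7 has a related pseudogene, HSD17B7P2, listed at 0.905, 0.950 and 1.42 RPKM, so that its reads may be shared.

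**Figure D3:**
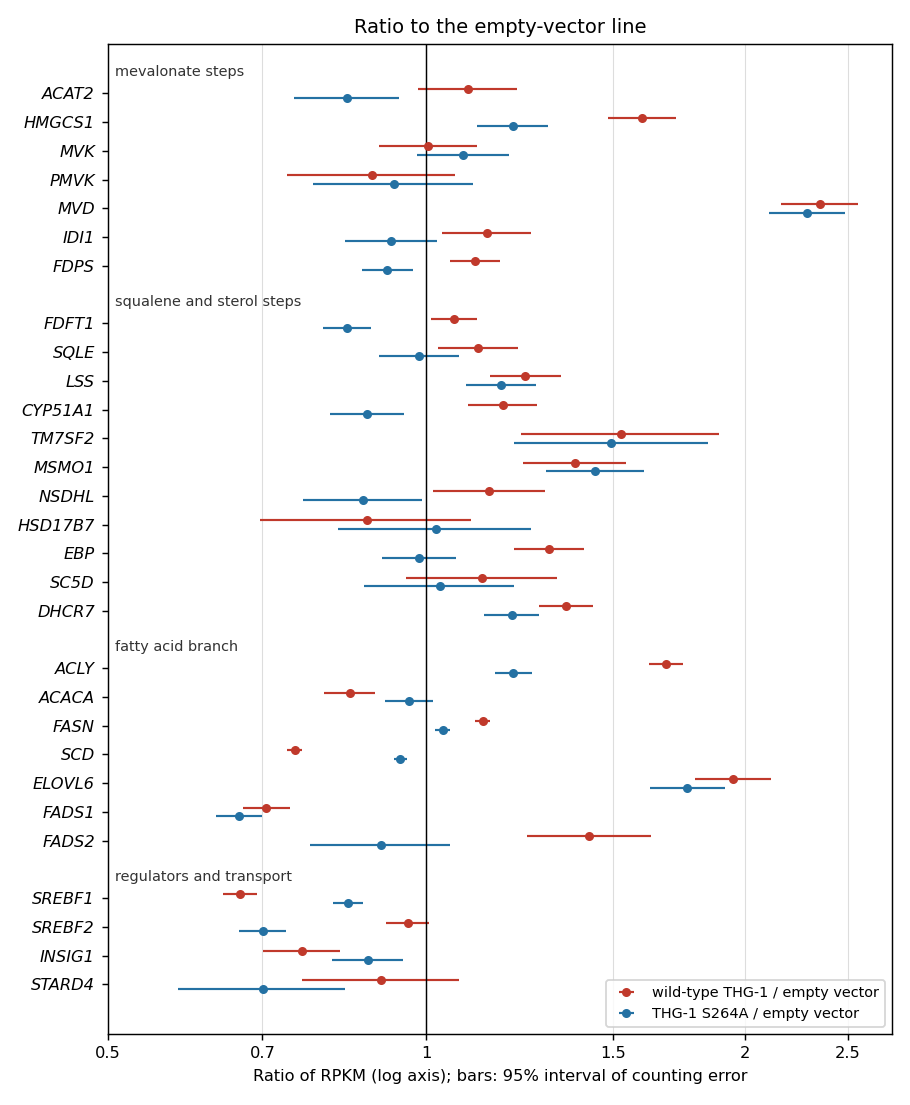
Ratio of RPKM to the empty-vector line for the 29 members. The horizontal axis is the ratio on a log axis, red points are wild-type THG-1, blue points are S264A, and bars are 95% intervals of counting error. MVD (2.35 and 2.29) and ELOVL6 (1.95 and 1.76) are high in both THG-1 lines, while ACLY and HMGCS1 are higher with wild type than with S264A.

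Over the 18 genes of the cholesterol branch, 16 had a log2 difference above 0 for wild type against empty vector as deposited (88.9%, against 49.5% of all genes), with a median of 0.18. The 2 others were PMVK and HSD17B7. With scaling to an equal sum of RPKM the count was 12 of 18 and the median 0.03. The differences of ACAT2, MVK, FDPS and FDFT1 turned below 0 under some scalings, and 12 genes were above 0 under every scaling tried. The median of the 7 mevalonate step genes went from 0.15 to -0.01 under that scaling, and that of the 11 squalene and sterol step genes from 0.23 to 0.08. The same scaling moves the median of all genes to -0.14.

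The fatty acid branch had a median of 0.18 as well. With a filter at 5 RPKM, which leaves 24 of the 29 members, its median turned to -0.02 and the cholesterol branch stood 0.21 above it. Its differences ran from -0.47 to 0.85, with 4 of 7 above 0 and 3 below, against -0.16 to 1.14 in the cholesterol branch. The 4 above 0 were above it under every scaling tried. ELOVL6, the elongase that lengthens palmitate to stearate, was at 5.69 RPKM in the empty-vector line, 11.1 in the wild-type line and 10.04 in the S264A line. Its ratio was 1.95 (1.79 to 2.11) in the wild-type line and 1.76 (1.62 to 1.91) in the S264A line, and S264A was at 0.905 (0.8296 to 0.988) times wild type. Both THG-1 lines were high. Differences as high as this were found in 5.93% and 5.79% of all genes.

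ACLY, the ATP citrate lyase that supplies cytosolic acetyl-CoA to both branches, was at 42.3 RPKM in the empty-vector line, 71.1 in the wild-type line and 51.03 in the S264A line. The wild-type library was high and the S264A library lay nearer to empty vector. The ratio was 1.68 (1.62 to 1.75) in the wild-type line, 1.21 (1.16 to 1.26) in the S264A line and 0.717 (0.687 to 0.749) for S264A against wild type. The 1.5-fold call for wild type was lost under 2 of 6 alternatives, at 0.49 in the quantile-normalised columns and 0.581 with an equal sum. ACACA, the acetyl-CoA carboxylase that makes malonyl-CoA, was at 11.04, 9.34 and 10.6 RPKM in the order empty vector, wild type and S264A. FASN, next in the pathway, had ratios of 1.13 and 1.04 at the levels given above.

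The desaturases were not alike. The intervals that follow for SCD, FADS1 and FADS2 were chosen after their values were seen. SCD was lowest with wild-type THG-1, at 0.751 (0.739 to 0.763) times the empty-vector line, while S264A was at 0.944 (0.931 to 0.958) times. FADS1, which desaturates precursors of arachidonic acid, was at 20.6 RPKM in the empty-vector line, 14.5 in the wild-type line and 13.7 in the S264A line. It was high with empty vector and lower in both THG-1 lines, with ratios of 0.706 (0.671 to 0.743) and 0.665 (0.633 to 0.6999). FADS2, the desaturase upstream of FADS1, was at 1.70 RPKM in the empty-vector line, 2.42 in the wild-type line and 1.54 in the S264A line, with ratios of 1.42 (1.24 to 1.63) and 0.905 (0.776 to 1.05) from 601, 340 and 238 reads. FADS1 and FADS2 share 490 exonic bases on opposite strands in GENCODE release 29, 4.79% of the length of FADS1 and 4.44% of that of FADS2. FADS2, the lower gene, also shares 49 bases on the same strand with FEN1, which was at 36.4, 36.2 and 35.4 RPKM. The sources used here do not say whether counting used strand. Reads of FADS1 and FEN1 may therefore be counted in FADS2, and its ratios may be affected.

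All 4 regulators and transport genes were highest in the empty-vector library. This holds for 33.5% of the 12379 genes at 1 RPKM or more in any library as deposited, and for 42.8% with scaling to an equal sum. For SREBF2 and STARD4 the wild-type intervals against empty vector included 1. SREBF1, which encodes SREBP1, was at 53.01 RPKM in the empty-vector line, 35.4 in the wild-type line and 44.7 in the S264A line. The wild-type library was the lowest, with a ratio of 0.667 (0.643 to 0.692), and S264A lay between with 0.843 (0.816 to 0.871). S264A was at 1.26 (1.21 to 1.32) times wild type. SREBF1 shares 6.92% of its exonic length with RAI1 on the opposite strand. The log2 difference of -0.57 for wild type was just short of the 1.5-fold rule (0.585), and differences as low were found in 7.24% of all genes. The difference passed that rule in the quantile-normalised columns (-0.73), with an equal upper quartile (-0.66) and with an equal sum (-0.73).

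SREBF2, which encodes SREBP2, showed another order. It was at 26.9 RPKM in the empty-vector line, 25.8 in the wild-type line and 18.8 in the S264A line, and the S264A library was the low one. The ratio was 0.9598 (0.916 to 1.01) in the wild-type line, 0.701 (0.666 to 0.737) in the S264A line and 0.730 (0.688 to 0.775) for S264A against wild type. INSIG1, an anchor of SREBPs in the endoplasmic reticulum and itself an SREBP target, was at 20.4, 15.5 and 17.9 RPKM in the order empty vector, wild type and S264A. STARD4, a cytosolic sterol carrier, was at 2.86, 2.598 and 2.01 RPKM. The table gives transcript levels only, and the cleavage of SREBPs was not measured.

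The second comparison, S264A against empty vector, uses the same empty-vector library as the first, so that the values of both are not independent. MVD was again at least 2-fold higher (3.45% of members, against 2.99% of all 12010 genes compared), and no member was at least 2-fold lower (0.824% of all genes, and 3.81% in either direction). At least 1.5-fold higher were MVD and ELOVL6 (6.90%, against 8.56% of all genes), and none was at least 1.5-fold lower on the log2(RPKM + 1) scale (3.97% of all genes). By plain ratio FADS1 was just past 1.5-fold lower, at 0.665. The cholesterol branch had 9 genes above and 9 below 0 (52.2% and 47.8% of all genes), with a median of -0.00038, against 0.02 over all genes. The fatty acid branch had 3 above and 4 below with a median of -0.05. The largest difference below 0 was that of FADS1, -0.55, and values as low were found in 4.51% of all genes.

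The third comparison set S264A against wild type. No member reached a 1.5-fold difference on the log2(RPKM + 1) scale in either direction, against 6.65% of all 12069 genes higher and 7.13% lower, and none a 2-fold difference (1.55% and 2.23%, or 3.78% in either direction). By plain ratio FADS2, a low gene whose reads may be shared with FADS1, was at 0.636 (0.536 to 0.752) times wild type. The median was -0.17 in the cholesterol branch and -0.12 in the fatty acid branch, against 0.02 over all genes. In the cholesterol branch 14 of 18 genes were lower in S264A as deposited, against 47.7% of all genes. For MVD, LSS, TM7SF2 and SC5D among them the interval included 1. With scaling to an equal sum 11 of 18 were lower, and the share of all genes is not given for that scaling. There the medians of the branches were -0.06 and -0.01 and that of all genes was 0.12. The largest differences were -0.47 for ACLY in the fatty acid branch, -0.43 for SREBF2 among regulators, -0.40 for CYP51A1 in the sterol steps and -0.38 for HMGCS1 in the mevalonate steps. The largest differences above 0 were 0.33 for SCD and 0.33 for SREBF1.

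**Figure D4:**
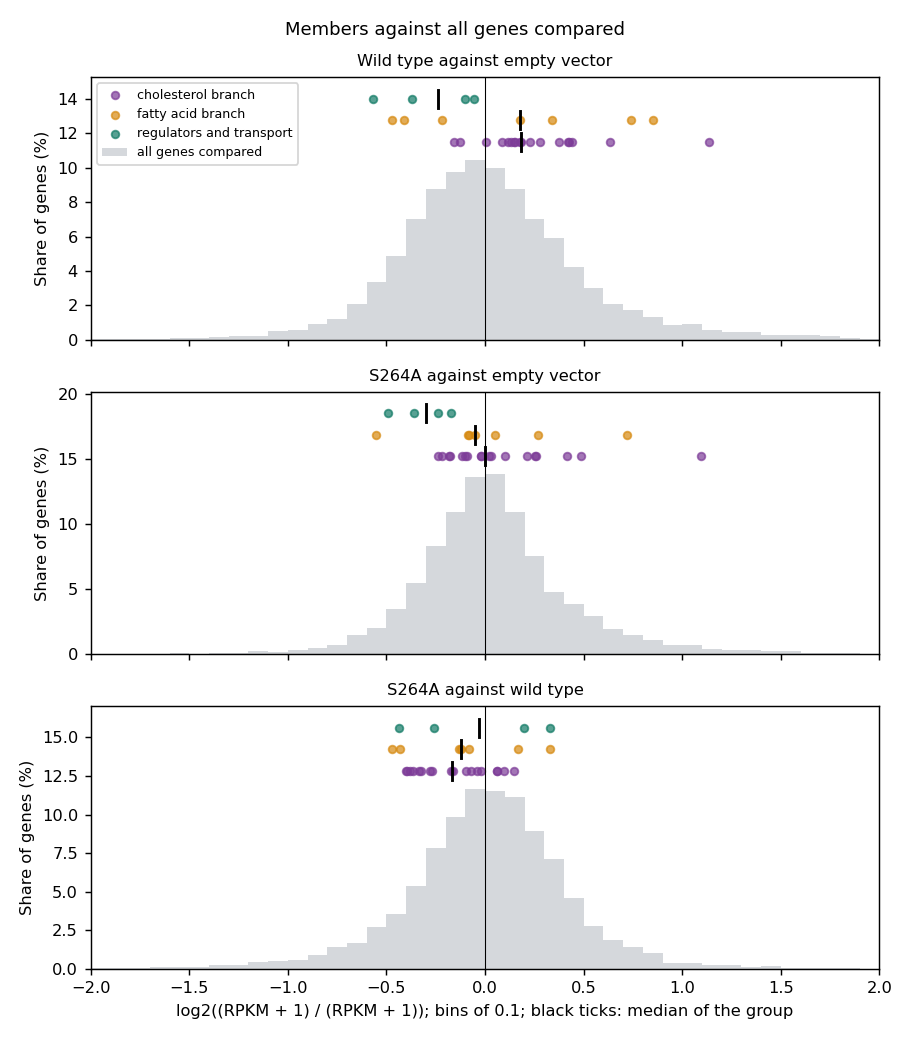
Differences of the members beside those of all genes compared, for the 3 comparisons. The horizontal axis is log2((RPKM + 1)/(RPKM + 1)), grey bars are the share of all genes per bin of 0.1, points are members by group (their height carries no value), and black ticks are group medians. Genes beyond 2 in either direction lie outside the axis. The medians of both branches are 0.18 in the first comparison, while the regulators and transport genes lie below 0 in the first and second.

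Seen by line, the wild-type library was the highest of the 3 for 14 of 18 genes of the cholesterol branch and for 4 of 7 of the fatty acid branch, against 35.3% of the 12379 genes at 1 RPKM or more in any library. Among the 14, the wild-type library lay within counting error of another for MVD, LSS, TM7SF2, SC5D and ACAT2. With scaling to an equal sum the count in the cholesterol branch was 8 of 18, against 24.3% of all genes. As deposited, the empty-vector library was the highest for 1 of 18 (PMVK) and 3 of 7 (ACACA, SCD and FADS1), against 33.5% of all genes. The lowest library of the cholesterol branch as deposited was empty vector for 8 genes, S264A for 8 and wild type for 2. The same share over all genes was not computed, so these counts are a description only. For IDI1, SQLE, EBP, MVK, SC5D, PMVK and HSD17B7 the lowest library lay within counting error of another. The median ratio of the highest to the lowest library was 1.28 in the cholesterol branch and 1.503 in the fatty acid branch.

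Of 69 other genes of sterol and lipid metabolism, 51 were compared between wild type and empty vector and 55 in the other comparisons. Some of them passed the filter through the THG-1 line alone, where they are high. These were ACSL5 and SULT2B1 for wild type, and 6 genes for S264A (ABCA1, ACSL5, PLIN2, CERS3, ABCA12 and SULT2B1). For S264A against wild type 4 passed through the S264A library alone, namely ABCA1, PLIN2, CERS3 and ABCA12. Of these, ABCA1 and PLIN2 are among the genes past 1.5-fold upward in that comparison. Counts by direction over the 69 genes are therefore a description only. For wild type 4 were at least 2-fold higher (7.84% of those compared) and 0 lower on the log2(RPKM + 1) scale (4.53% and 1.54% of all genes). These were SCARB1, a receptor for high-density lipoprotein, SCD5, a second stearoyl-CoA desaturase, ACSL5, an acyl-CoA synthetase, and SULT2B1, which sulphates cholesterol in the epidermis. By plain ratio ACSS2 (2.01) was also past 2-fold higher, and COQ2 (0.464) and SMPD1 (0.483) were past 2-fold lower. For S264A 3 were at least 2-fold higher (5.45% of those compared) and 0 lower on the log2(RPKM + 1) scale (2.99% and 0.824% of all genes). These were ACSL5, SULT2B1 and ABCA1, a cholesterol exporter. All 3 had passed the filter through the S264A library alone, so no result is drawn from their number. By plain ratio PLIN2, CERS3 and ABCA12 were also past 2-fold higher, and FADS3 (0.476) was past 2-fold lower. Against wild type, S264A was at least 2-fold higher in ACSL1, another acyl-CoA synthetase, and lower in SCD5 on the log2(RPKM + 1) scale (1.55% and 2.23% of all genes). There ABCA1, PLIN2 and CERS3 were also past 2-fold higher by plain ratio. At the 1.5-fold rule 8, 11 and 5 were higher in the 3 comparisons in turn (15.7%, 20% and 9.09% of those compared). The shares of all genes were 11.0%, 8.56% and 6.65%. The 8 include ACSL5 and SULT2B1, and the 11 include ABCA1, ACSL5, PLIN2, CERS3 and SULT2B1, which had passed the filter through the THG-1 line alone. By the same rule 7, 2 and 3 were lower (13.7%, 3.64% and 5.45% of those compared), against 6.72%, 3.97% and 7.13% of all genes.

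SCARB1 was at 2.83 RPKM in the empty-vector line, 7.53 in the wild-type line and 3.96 in the S264A line, a ratio of 2.66 (2.41 to 2.95) in the wild-type line and 1.398 (1.24 to 1.57) in the S264A line. SCD5 was at 1.83 RPKM in the empty-vector line, 5.26 in the wild-type line and 1.52 in the S264A line, so that the wild-type library alone was high. ABCA1 was highest in another line, with 0.0852 RPKM in the empty-vector line, 0.457 in the wild-type line and 1.86 in the S264A line, from 31, 66 and 296 reads. ACSL5 was at 0.166, 2.04 and 2.49 RPKM and SULT2B1 at 0.298, 1.698 and 1.69 RPKM in the order empty vector, wild type and S264A, and in both genes the empty-vector library was the low one, with 23 and 27 reads. ACSL1 was at 7.15, 3.69 and 12.8 RPKM, lowest with wild type and highest with S264A.

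Among the 4 genes of SREBP processing, SCAP, the sterol-sensing escort of SREBPs, was at 6.52, 5.88 and 5.77 RPKM and INSIG2, a relative of INSIG1, at 1.83, 2.03 and 2.19 RPKM for empty vector, wild type and S264A. The proteases that cut SREBPs differed from each other. MBTPS1 was at 5.79, 6.098 and 9.18 RPKM, highest with S264A, and MBTPS2 at 3.58, 1.96 and 2.43 RPKM, highest with empty vector. Of 8 genes of the isoprenoid branches that leave the mevalonate pathway none was at least 2-fold different on the log2(RPKM + 1) scale in any comparison. For wild type against empty vector 2 of the 8 (25% of them, against 6.72% of all genes) were at least 1.5-fold lower. These were COQ2, a prenyltransferase of ubiquinone synthesis, at 4.94, 2.29 and 4.14 RPKM, and FNTA, a subunit of protein prenyltransferases, at 4.58, 2.66 and 3.07 RPKM. The plain ratio of COQ2 was 0.464 (0.362 to 0.5899).

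Genes of epidermal barrier lipids were compared because keratinocytes feed both branches into them. For S264A against empty vector 11 of 16 listed genes were compared, of which SULT2B1, CERS3 and ABCA12 passed the filter through the S264A library alone, so that no count or median of this list is given. Past 1.5-fold upward were SULT2B1, CERS3 (a ceramide synthase, 0.298, 0.658 and 1.33 RPKM), SPTLC2 (a subunit of serine palmitoyltransferase, 7.05, 8.41 and 11.7 RPKM) and UGCG (glucosylceramide synthase, 7.47, 12.9 and 12.2 RPKM). Others of the list went the other way, though none past 1.5-fold on the log2(RPKM + 1) scale. These were DEGS1, CERS2 and SMPD1, with ratios of 0.703 (0.595 to 0.827), 0.786 (0.731 to 0.846) and 0.831 (0.626 to 1.09). They were named after their values were seen. The suprabasal keratinocyte markers did not share an order of lines. KRT10 was at 5.68, 32.1 and 17.5 RPKM and KRT1 at 0.514, 0.0631 and 1.86 RPKM with empty vector, wild type and S264A. The part of differentiation in these values was not tested.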

How the data were processed

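RNA from 3 HaCaT lines, with 1 library each, had been sequenced on a NextSeq500, per the labels. The deposited table holds RPKM per gene and library, per the file headers, and a second column per library. Those were RPKM that the authors had quantile-normalised: once sorted, the 3 columns were checked to be identical. The submitters' processing notes name the build hg19. Not given in the sources used here were the aligner, counter, strand setting and annotation.

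The deposited RPKM were used as they stand. Where a symbol had several rows (234 of 55773), that of highest mean level was kept. Depths and whole reads (tolerance 0.001 reads) were recovered from the steps of the RPKM, with GENCODE release 29 giving lengths only. For 19 of 29 members the GENCODE length itself gave whole reads, and for the others the nearest length that did (0.826 to 1.14 times it). This was tested on simulated data made with the GENCODE lengths. Genes of another length were therefore not covered by that check. Python 3.11.15, numpy 2.4.6, pandas 2.3.3 and scipy 1.17.1 were used.

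No test was run, since each group has 1 library. Intervals and ratios are given for members past 1.5-fold in any comparison and for the member with the largest difference per group and comparison. Other lipid genes are named when past 2-fold. Exceptions are stated where they occur, apart from the following. Ratios of FDPS, SQLE, EBP, DHCR7 and FASN were given outside these rules. SCAP, INSIG2, MBTPS1, MBTPS2 and FNTA were named outside them. The members and lists were chosen with earlier results of these data known. The alternatives were other pseudocounts, filters, scalings, the quantile-normalised columns and protein-coding genes only.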

Additional observations from a re-analysis of the deposited data

How the results depend on the processing

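No paired analysis was possible because each group has 1 library, and no library could be left out. Values with no test were taken as moved when they changed by over 0.1 on the log2 scale, and counts when they changed by over 1.5 times. Scaling to an equal sum of RPKM shifted the median of all genes from -0.01 to -0.14 for wild type against empty vector and from 0.02 to 0.12 for S264A against wild type. In the first comparison the share of higher genes among those past 2-fold went from 74.6% to 62.7%.

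For wild type against empty vector, the number of members at least 2-fold higher was 0 with a pseudocount of 5 RPKM and 0 with an equal sum. At least 1.5-fold higher were 2 in the quantile-normalised columns and 2 with an equal sum. At least 1.5-fold lower were 2 under each of these (SREBF1 and FADS1) and 1 with an equal upper quartile (SREBF1). The medians of the cholesterol and fatty acid branches were 0.0746 and 0.0501 in the quantile-normalised columns and 0.0312 and 0.0169 with an equal sum, where that of all members was 0.0112. With a filter at 5 RPKM, which leaves 24 members, the fatty acid median was -0.0219 and the difference of branch medians (cholesterol minus fatty acid, 0.00414 as deposited) was 0.206. With a pseudocount of 5 RPKM that difference was -0.00689.

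For S264A against empty vector, a pseudocount of 5 RPKM left 0 members at least 2-fold and 1 at least 1.5-fold higher. The cholesterol median was 0.00268 with a pseudocount of 0.1 RPKM. With a filter at 5 RPKM the fatty acid median was 0.000246 and the difference of branch medians -0.0218. At least 1.5-fold lower was 1 member in the quantile-normalised columns, 1 with an equal upper quartile and 1 with an equal sum, FADS1 in each.

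For S264A against wild type, 1 member was at least 1.5-fold lower with a pseudocount of 0.1 RPKM. With a filter at 5 RPKM the cholesterol median was -0.27 and the difference of branch medians -0.17. The fatty acid median was -0.0246 in the quantile-normalised columns. With an equal sum the medians were -0.0255 for all members, -0.0578 for the cholesterol branch and -0.00990 for the fatty acid branch. The cause of these changes was not tested. The number of cholesterol branch genes highest in the wild-type library, checked by scaling after the data were seen, was 14 as deposited and 8 with an equal sum.

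Of 36 values of differences past 1.5-fold, 7 fell short of it under an alternative and 0 changed sign. These were 4 of 6 for HMGCS1 and 2 of 6 for ACLY with wild type, and 1 of 6 for ELOVL6 with S264A. MVD lost none. At the depth of the THG-1 libraries, members below 4 RPKM rest on as few as 104 reads, which widens their intervals.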

Other observations

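Ratios of genes within a library do not change when a library is multiplied by a factor, though they differ in the quantile-normalised columns. The summed RPKM of the fatty acid branch was 2.54 times that of the cholesterol branch with empty vector, 1.91 times with wild-type THG-1 and 2.40 times with S264A. Without SCD the ratios were 0.976, 0.956 and 0.984, without FASN 1.89, 1.32 and 1.76, and without both 0.332, 0.362 and 0.342. SCD over FASN was 2.43, 1.61 and 2.21 in the same order.

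The following ratios were chosen after the values were seen. MVD over FDPS was 0.208 with empty vector, 0.441 with wild type and 0.518 with S264A. ELOVL6 over SCD was 0.0149, 0.0387 and 0.0279. ACLY over ACACA was 3.83, 7.61 and 4.80, and FADS1 over FADS2 12.1, 5.999 and 8.89. SREBF1 over SREBF2 was 1.97, 1.37 and 2.37, lowest with wild type and highest with S264A.

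ACSS2, which makes acetyl-CoA from acetate and is a known SREBP target, was at 9.13 RPKM in the empty-vector line, 18.3 in the wild-type line and 18.1 in the S264A line. Its ratios were 2.01 (1.86 to 2.16) and 1.98 (1.84 to 2.13), and it was likewise chosen after its values were seen. It belongs to a list of 20 genes of fatty acid supply, desaturation and elongation, of which 15 were compared. ACSL5 passed the filter through the THG-1 line alone with wild type and with S264A, so that the counts and medians that follow are a description only. For wild type 6 of the 15 were above and 9 below 0, with a median of -0.17 (49.5% of all genes above 0, median -0.01). For S264A 7 were above and 8 below, with a median of -0.04 (52.2% of all genes above 0, median 0.02).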
